A study of Mus musculus with 12 samples.

Results

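The comparison described here is the response of the wild-type mouse left ventricle to transverse aortic constriction (TAC), a surgical narrowing of the aortic arch that raises the pressure against which the ventricle pumps. The 3 libraries labelled WT_TAC were set against the 3 libraries labelled WT_NS, and every gene with at least 10 counts in at least 3 of these 6 libraries was taken. The rule kept 15121 of the 49492 genes in the deposited count table. Of these, 13978 reached 10 counts in all 6 libraries, 30 passed only through the WT_TAC libraries and 18 passed only through the WT_NS libraries. Of the 30, 3 were called, and of the 18, 1 was called.

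The series holds 12 polyadenylated RNA libraries of mouse left ventricle, with 3 in each of 4 groups, and concerns cardiac hypertrophy in animals deficient for Alox5 in the heart. WT_TAC animals carried the wild-type genotype and had TAC. WT_NS animals carried the wild-type genotype and are taken here as the group without TAC, although the labels do not spell out NS. The Alox5ko_TAC and Alox5ko_NS libraries entered the fit as the source of a shared estimate of the spread. The driver of the Alox5 deletion, the strain, age and sex of the animals, the time after surgery and any pooling are not given in the sources used here. Nothing in the labels says that the libraries of a group came from separate animals, so the p-values measure only the spread between these libraries, which may be technical.

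Pressure overload makes cardiac myocytes grow. The textbook response of the rodent ventricle has several arms: myocytes express natriuretic peptides and fetal isoforms of contractile proteins, add sarcomeres with their anchoring proteins, and express less of the machinery for burning fatty acids, while fibroblasts lay down matrix. Serum response factor, which binds the CArG box, and MEF2 factors act at the promoters of many of the muscle genes.

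Library totals were 20889431 to 23196760 counts in WT_TAC and 21328937 to 22372490 in WT_NS, and levels are given in CPM, the usual counts of a gene per megacount of its library, with library sizes scaled by trimmed mean of M values (TMM). Values per library are listed in the order of replicates 1, 2 and 3. Mitochondrially encoded transcripts took 15.7% to 17.3% of the counts in WT_TAC and 16.5% to 18.1% in WT_NS. The defining myocyte genes were abundant in all 6 libraries, and none of the lung epithelial markers passed the filter. WT_TAC 1 stood apart from the other WT_TAC libraries in matrix genes: the 9 tested fibrillar collagens summed to 910 CPM there, against 462 and 561 CPM in WT_TAC 2 and 3 and 584, 572 and 524 CPM in the WT_NS libraries. Results that lean on it are therefore also given without it. WT_NS 2 was the highest WT_NS library for several stress genes.

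With edgeR's quasi-likelihood test and Benjamini-Hochberg adjustment over all 15121 genes, 118 genes (0.78%) differed at an adjusted p below 0.05, a threshold that defines a called gene from here on. Of these, 73 (0.483%) were higher and 45 (0.298%) were lower in WT_TAC. The median log2 fold change was 0.75 over the 73 and -0.67 over the 45, against 0.00 over all genes tested. No called gene had overlapping groups. Changes were mostly modest: 32 called genes differed by at least 2-fold, 24 higher and 8 lower, and 42 differed by less than 1.5-fold, 22 higher and 20 lower. Conversely, of 209 tested genes with a fitted difference of at least 2-fold, only those 32 were called.

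**Figure D1:**
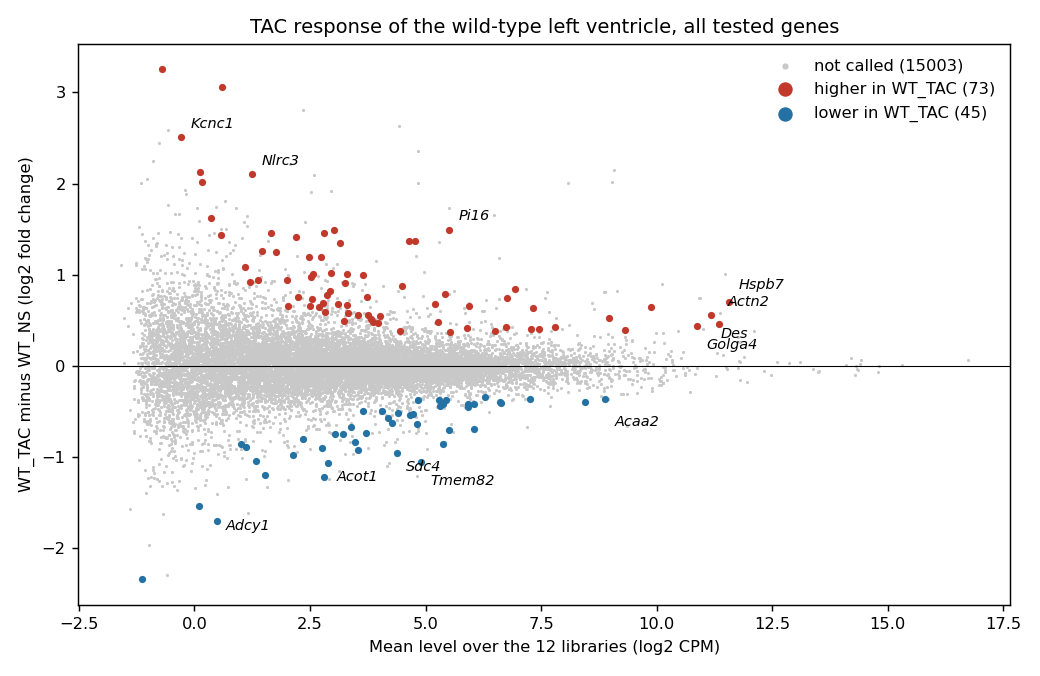
Log2 fold change (WT_TAC minus WT_NS, vertical axis) against mean level over the 12 libraries (log2 CPM, horizontal axis) for the 15121 genes tested, with the 73 genes called higher in red, the 45 called lower in blue and the others in grey. Called genes of high level, such as Hspb7 and Golga4, lie close to the zero line, and called genes of low level, such as Kcnc1 and Adcy1, lie farther from it.

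The count of called genes depended on single libraries. Without WT_NS 1 it was 17, without WT_NS 3 it was 19 and without WT_TAC 3 it was 31, while without WT_TAC 1 it was 85, of which 47 were among the 118. In each of the 6 fits with 1 library left out, 10 of the 102 called genes that are not predicted models, clones or of unclear symbol passed the test: Nlrc3, Pi16, Scx, Acot1, Tmem82, Hspb7, Igfbp5, Camk2b, Sardh and Kcnc1. Kcnc1 entered the test only through its WT_TAC counts, so its place there is no sign of stability. At an unadjusted p below 0.05, 999 genes (6.61%) were higher and 796 (5.26%) lower. All 3 WT_TAC libraries lay above all 3 WT_NS libraries for 1531 genes (10.1%) and below them for 1345 (8.89%). These shares are the background for the counts of gene groups given next, with 51% of all genes positive and 49% negative. In the fit without WT_TAC 1, 40 genes were called higher and 45 lower. At an unadjusted p below 0.05, 800 (5.29%) were higher and 828 (5.48%) lower in that fit. The lists were chosen with earlier results of these data known, so a count above its background share is a description and no test. None of the 102 changed direction in any of the fits with 1 library left out.

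The yield depended on level. Of the 1028 genes at 100 CPM or more, 1.75% were called, 14 higher and 4 lower, with a median absolute log2 fold change of 0.43. Of the 6470 genes between 1 and 10 CPM, 0.711% were called, 33 higher and 13 lower, and their median absolute log2 fold change was 1.01. Among the 1835 genes under 1 CPM, 3 were called (0.163%). Among protein-coding genes 64 were called higher and 40 lower (0.829%), and among long noncoding or unclassified transcripts 8 were called higher and 3 lower (0.767%). None of 535 tested pseudogenes was called.

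Among myocyte structural genes, Hspb7, Des, Nrap, Actn2, Myot and Trim54 rose, while most of the other structural genes tested did not pass. Hspb7, a small heat shock protein of striated muscle that works at the thin filament and with filamin C, had 4220.2, 3745 and 3637 CPM in WT_TAC, against 2280.0, 2425 and 2453 CPM in WT_NS. Every WT_TAC library was above every WT_NS library, and the log2 fold change was 0.70 ± 0.10 (SE, adjusted p = 0.00418). Its gene lies on chr4:141420779-141425311, plus strand, in the GRCm38 coordinates of the deposited table. Des, which encodes the intermediate filament desmin, had 3015, 2596 and 2513 CPM in WT_TAC, against 1822, 1839 and 1866 CPM in WT_NS. The WT_NS libraries were nearly level with each other and all WT_TAC libraries lay above them (0.56 ± 0.11, adjusted p = 0.0341). Nrap, a nebulin-related protein of myofibril assembly and of the intercalated disc, had 1239, 1105 and 1039 CPM in WT_TAC, against 611, 783 and 769 CPM in WT_NS (0.65 ± 0.13, adjusted p = 0.0377). A predicted gene on the opposite strand overlaps exons of Nrap and was called as well, and the setting for strand in the counting is not given in the sources used here, so their reads may not be fully separated.

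At the Z-disc, which tethers thin filaments of neighbouring sarcomeres, 2 of 27 tested genes were called, both higher. Actn2, the alpha-actinin that crosslinks actin there, had 3197, 2912 and 3039 CPM in WT_TAC, against 2025, 2249 and 2384 CPM in WT_NS, with no overlap (0.46 ± 0.10, adjusted p = 0.0456). Myot, which encodes myotilin, had 46.0, 49.0 and 38.1 CPM in WT_TAC, against 22.4, 29.5 and 25.1 CPM in WT_NS (0.79 ± 0.16, adjusted p = 0.0397). The Z-disc list as a whole was split, with 16 members positive and 11 negative and a median log2 fold change of 0.05, or -0.02 without WT_TAC 1. Trim54, a muscle RING-finger protein (MuRF3) that binds microtubules, rose by 0.39 ± 0.08 on the log2 scale (adjusted p = 0.0296), with 704, 677 and 653 CPM in WT_TAC and 488, 557 and 504 CPM in WT_NS. Klhl40, a kelch protein that stabilises thin-filament proteins in skeletal muscle, rose by 0.52 ± 0.11 (adjusted p = 0.034). Without WT_TAC 1 the log2 fold changes of Des, Nrap, Actn2, Myot, Trim54 and Klhl40 lay between 0.37 and 0.76. Their adjusted p lay between 0.0793 and 0.118, so none of the 6 was called. Des and Actn2 were called in 0, Nrap, Trim54 and Klhl40 in 1 and Myot in 2 of the 6 fits with a library left out. Trim54, like Nrap, shares exonic bases with a called predicted gene on the opposite strand.

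**Figure D2:**
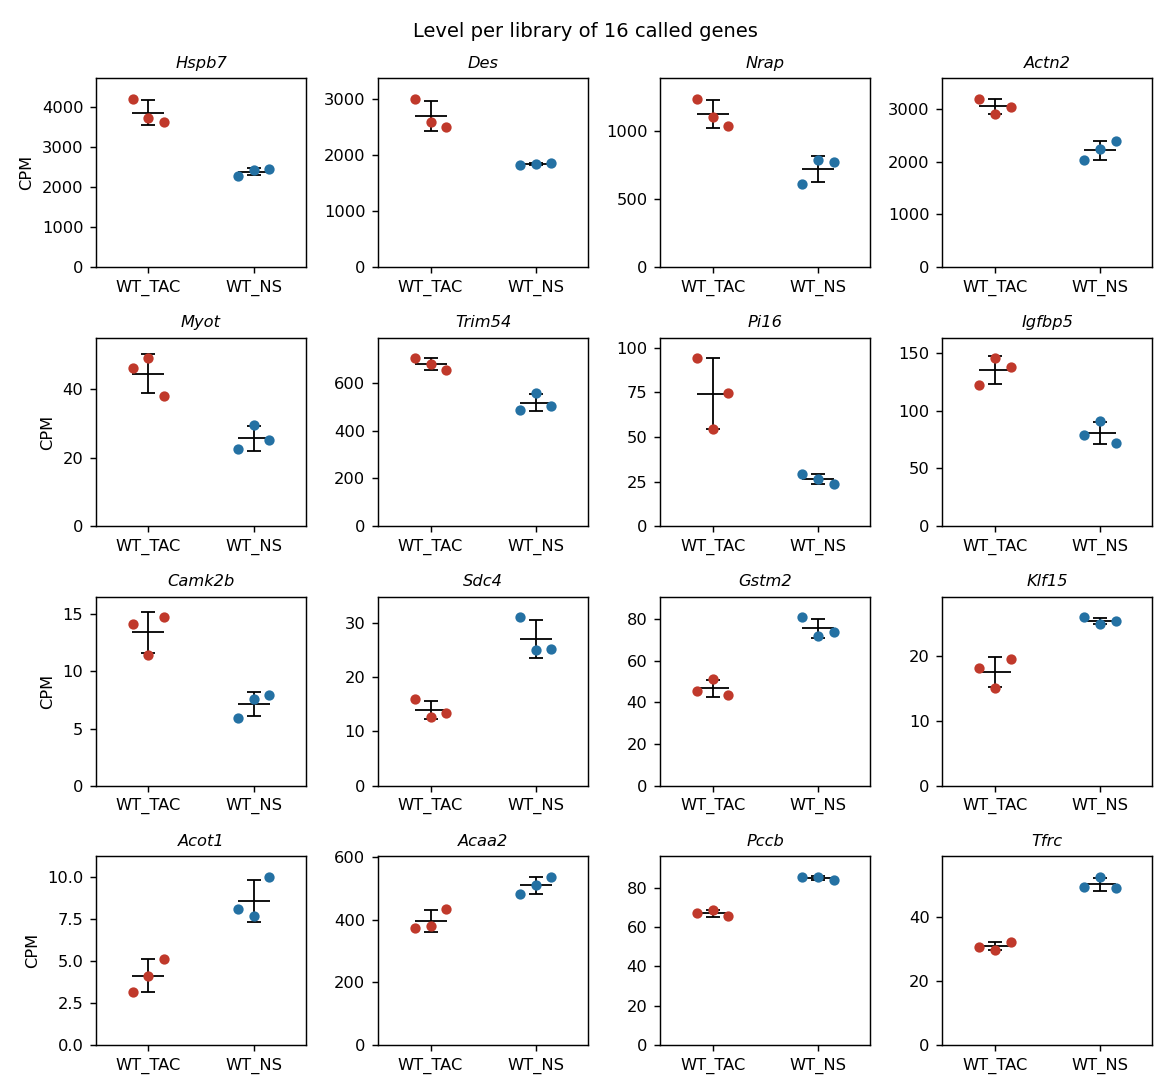
Level in CPM (vertical axis, from 0) of 16 called genes in the 3 WT_TAC libraries (red, left) and the 3 WT_NS libraries (blue, right), with the mean and SD in black. In each panel the 2 groups do not overlap: Hspb7 lies between 3637 and 4220.2 CPM in WT_TAC and between 2280.0 and 2453 CPM in WT_NS.

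The thick and thin filament genes themselves did not pass the test. None of the 16 tested was called, 13 were positive, and the list's median log2 fold change was 0.09. Myom1, which crosslinks thick filaments at the M-band, came nearest, with 2368, 2396 and 2405 CPM in WT_TAC against 1707, 1862 and 1843 CPM in WT_NS (0.41 ± 0.10, adjusted p = 0.0581). The groups did not overlap and the WT_TAC libraries were close together. Tnnc1, cardiac troponin C, had 5341, 4989 and 4794 CPM in WT_TAC and 3824, 3963 and 3854 CPM in WT_NS (0.38 ± 0.12, adjusted p = 0.169). Myh6, the adult alpha myosin heavy chain, differed by 0.06 on the log2 scale (adjusted p = 0.856).

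The fetal and stress genes of myocytes were mostly higher in sign, with a wide spread between libraries. Of 19 tested, 3 were called (Hspb7, Des and Nrap), 16 were positive, 11 were higher at an unadjusted p below 0.05, and the median log2 fold change was 0.58. Without WT_TAC 1 the list kept 16 positive members, a median of 0.44 and 1 called gene, and 7 were higher at an unadjusted p below 0.05. Acta1, skeletal alpha-actin, had 959, 913 and 494 CPM in WT_TAC, against 102, 312 and 117 CPM in WT_NS. All WT_TAC libraries were above all WT_NS libraries, with WT_NS 2 the closest, and the log2 fold change of 2.15 ± 0.68 did not pass (adjusted p = 0.24). Myh7, the beta myosin heavy chain of the fetal ventricle, had 3806, 2893 and 2928 CPM in WT_TAC, against 2110.4, 2014 and 2308 CPM in WT_NS (0.58 ± 0.19, adjusted p = 0.236). Ankrd1, a stretch-responsive ankyrin repeat protein, overlapped between groups because WT_NS 2 held 2619.6 CPM, more than the 2357 CPM of WT_TAC 3 (1.003 ± 0.39, adjusted p = 0.347). The natriuretic peptide genes, whose hormones act on vessels and kidney, likewise missed the threshold. Nppa had a log2 fold change of 2.02 (adjusted p = 0.163), and of 1.67 without WT_TAC 1 (adjusted p = 0.33). Nppb had an adjusted p of 0.537, and a log2 fold change of 0.54 without WT_TAC 1 (adjusted p = 0.79).

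Isoform pairs were compared per kilobase of the deposited gene length, which counts the annotated exonic bases of a gene and not those of 1 transcript. The size of a share therefore depends on the annotation, whereas the order of the libraries within a pair does not. The share of Myh7 in the sum of Myh6 and Myh7 was 2.45%, 1.92% and 1.91% in WT_TAC, against 1.51%, 1.44% and 1.47% in WT_NS. Acta1 made up 21.9%, 21.8% and 14.7% of the sum of Acta1 and Actc1, the cardiac alpha-actin, in WT_TAC, against 3.40%, 8.33% and 3.33% in WT_NS. Both shares were separated between the groups, each at a two-sided exact permutation p of 0.1, the smallest that 3 against 3 libraries allow (0.15 after adjustment over 6 pairs). Hk1, the hexokinase isoform of many tissues, had a share of 33.1% ± 3.05 of the sum of Hk1 and Hk2 in WT_TAC and 27.9% ± 1.37 in WT_NS (SD, n = 3 each, exact p = 0.1). The shares of Slc2a1 against Slc2a4, which encode glucose transporters, overlapped between groups (exact p = 0.8).

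**Figure D3:**
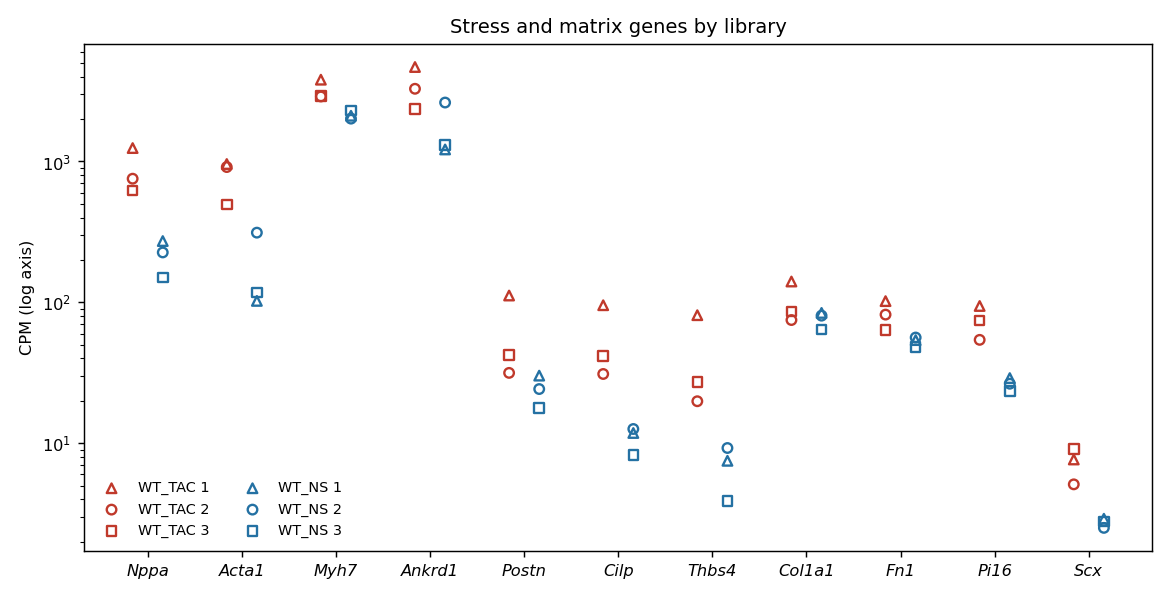
Level in CPM (log axis) of 11 stress and matrix genes in each WT_TAC library (red) and each WT_NS library (blue), with a triangle for replicate 1, a circle for replicate 2 and a square for replicate 3. WT_TAC 1 is the highest library for Postn at 112 CPM and Cilp at 95.3 CPM, and WT_NS 2 is the highest WT_NS library for Acta1 at 312 CPM and Ankrd1 at 2619.6 CPM.

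Because the fetal genes are textbook targets of serum response factor, the 250 bases upstream of the annotated start were searched for the CArG box on both strands, in RefSeq promoters of the GRCm38.p6 assembly. A promoter was matched by symbol for 10291 of the 15121 tested genes, and 119 of them (1.16%) held a CArG box. None of the 54 called higher genes with a promoter and none of the 31 called lower held one. Of the 16 fetal and stress genes with a promoter, 5 did (31.2%): Acta1, Actc1, Fhl1, Fhl2 and Myl7. A MEF2 site lay in 3 of these 16 (18.8%), against 1.79% of all. The promoters of 3 of the 5 are printed because they hold the same kind of box and differ in their response. Each runs 5′ to 3′ on the strand of its gene with the CArG box in capitals, and lies at chr8:123894776-123895025, minus strand, for Acta1, chr2:114052876-114053125, minus strand, for Actc1 and chrX:56779433-56779682, plus strand, for Fhl1.
Acta1: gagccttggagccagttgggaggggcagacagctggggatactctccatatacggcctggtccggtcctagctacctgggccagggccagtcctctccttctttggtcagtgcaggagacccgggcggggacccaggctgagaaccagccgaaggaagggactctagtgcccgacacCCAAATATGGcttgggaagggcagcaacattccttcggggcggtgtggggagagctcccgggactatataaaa
Actc1: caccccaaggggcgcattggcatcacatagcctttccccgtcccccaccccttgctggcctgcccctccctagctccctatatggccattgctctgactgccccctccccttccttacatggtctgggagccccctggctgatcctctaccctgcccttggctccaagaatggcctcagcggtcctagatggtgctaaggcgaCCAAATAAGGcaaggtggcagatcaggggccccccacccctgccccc
Fhl1: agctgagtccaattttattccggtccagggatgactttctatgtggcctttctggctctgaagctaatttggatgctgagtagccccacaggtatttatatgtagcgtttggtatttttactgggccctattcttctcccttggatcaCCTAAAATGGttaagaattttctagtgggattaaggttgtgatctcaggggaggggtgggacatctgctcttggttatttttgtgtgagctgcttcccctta
The first base of the box lies 73 bases upstream of the start in Acta1, 47 in Actc1 and 102 in Fhl1. Acta1 had a log2 fold change of 2.15, as given before. Actc1 had 3607, 3449.6 and 3027 CPM in WT_TAC, against 3065, 3622 and 3576 CPM in WT_NS, with overlapping groups (-0.03, adjusted p = 0.954). Fhl1, a LIM-domain protein of the sarcomere, had 42.0, 25.5 and 30.5 CPM in WT_TAC, against 24.4, 20.4 and 20.7 CPM in WT_NS (0.58 ± 0.19, adjusted p = 0.205). Fhl2 had a log2 fold change of 0.05 and Myl7, the atrial light chain, one of -0.87, so genes with a CArG box in this window were found at both ends of the list. None of the 5 was called, and a match to the letters is a description, not a bound site.

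Among genes of excitation and signalling, those called were mostly of low level and outside the channel list. Camk2b, which encodes a subunit of the calcium/calmodulin kinase CaMKII other than the main cardiac one, had 14.1, 11.4 and 14.7 CPM in WT_TAC, against 5.95, 7.56 and 7.94 CPM in WT_NS. The groups did not overlap (0.91 ± 0.13, adjusted p = 0.00468), and the call held without WT_TAC 1 (0.87, adjusted p = 0.0121). Kcnc1, a fast-gating voltage-gated potassium channel, had 0.940, 1.20 and 1.22 CPM in WT_TAC and 0.182, 0.302 and 0.0897 CPM in WT_NS (2.51 ± 0.38, adjusted p = 0.00577). It was tested only because its WT_TAC counts reached 10, with 4, 7 and 2 counts in WT_NS, so that it had to differ, and its p supports nothing further. Scn10a, a sodium channel known from sensory neurons and reported in the heart, had 1.598, 1.76 and 3.19 CPM in WT_TAC and 0.591, 0.345 and 0.673 CPM in WT_NS (2.02 ± 0.35, adjusted p = 0.0121). Both channels were near the lower end of the measured range. The calcium-stimulated adenylyl cyclases went opposite ways: Adcy8 was higher (1.62 ± 0.35, adjusted p = 0.0391) and Adcy1 lower (-1.70 ± 0.33, adjusted p = 0.0237). Adcy1 had 0.517, 0.686 and 0.563 CPM in WT_TAC, against 2.32, 1.55 and 1.93 CPM in WT_NS, which did not overlap. Chrm2, the muscarinic receptor through which the vagus slows the heart, fell, with 49.4, 47.3 and 59.2 CPM in WT_TAC against 69.6, 64.4 and 79.2 CPM in WT_NS (-0.45 ± 0.10, adjusted p = 0.0463). Without WT_TAC 1, Adcy8, Adcy1 and Chrm2 were not called, with adjusted p of 0.0642 to 0.126 and the same directions.

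None of 24 tested potassium, sodium and pacemaker channel genes, 23 calcium cycling genes or 16 intercalated disc genes was called. Hcn2, a pacemaker channel, had 12.03, 10.2 and 14.7 CPM in WT_TAC against 8.31, 8.85 and 8.07 CPM in WT_NS (0.55 ± 0.14, adjusted p = 0.0878). Kcne1, a potassium channel subunit, had 11.8, 6.82 and 8.83 CPM in WT_TAC against 4.04, 3.63 and 4.13 CPM in WT_NS (1.21 ± 0.41, adjusted p = 0.26). Atp2a2, the calcium pump of the sarcoplasmic reticulum, differed by -0.10 (adjusted p = 0.77), and its inhibitor Pln by -0.14 (adjusted p = 0.592). Rgs2, which dampens Gq signalling, had 24.9, 14.02 and 13.9 CPM in WT_TAC against 42.2, 41.7 and 37.8 CPM in WT_NS. No library overlapped, but the adjusted p was 0.0874. Without WT_TAC 1, the highest of its group, the log2 fold change of Rgs2 was -1.54 and the adjusted p 0.0121.

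Few genes of the fibroblast lineage and of matrix were called, and the values were uneven over libraries. In bulk tissue, more cells of a type and more RNA per cell cannot be told apart. Pi16, a marker of resting adventitial fibroblasts, rose (94.2, 54.1 and 74.4 CPM in WT_TAC, against 29.0, 26.4 and 23.5 CPM in WT_NS), with a log2 fold change of 1.50 ± 0.19 (adjusted p = 0.00784) and one of 1.29 without WT_TAC 1 (adjusted p = 0.00868). It was the only called gene of 17 tested fibroblast markers, whose median was 0.14. Of 11 tested markers of activated fibroblasts, none was called, 10 were positive and 6 were higher at an unadjusted p below 0.05, with a median of 1.21. These 11 markers summed to 477, 196 and 230 CPM in WT_TAC and to 194, 186 and 155 CPM in WT_NS. The sum of WT_TAC 1 was thus more than 2-fold that of the next library, and the list's median was 0.61 without it. In the fit without it, 4 of the 11 were higher and 1 lower at an unadjusted p below 0.05. Markers of valve and tendon-like cells were also higher: of 10 listed, 5 were tested and all 5 were positive. The list shares Comp with that of activated fibroblasts, and Fmod and Cilp2 with other matrix lists, so the lists are not independent. Of the 5 tested markers, 1 was called (Scx, higher), and the median was 1.74, or 1.23 without WT_TAC 1. They summed to 194, 57.7 and 89.2 CPM in WT_TAC and to 45.7, 28.5 and 24.98 CPM in WT_NS, with every WT_TAC library higher, and their part in the matrix values was not tested. Thbs4, a thrombospondin of stressed matrix, had 81.0, 19.8 and 27.1 CPM in WT_TAC, against 7.50, 9.24 and 3.90 CPM in WT_NS. Every WT_TAC library was higher, yet the gap between WT_TAC libraries was wide and the test did not call it (2.63 ± 0.80, adjusted p = 0.224).

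In the wider list of 35 matricellular and activated fibroblast genes, 29 were positive and 17 were higher at an unadjusted p below 0.05, with a median of 0.57. Without WT_TAC 1, 26 were positive and 10 were higher at an unadjusted p below 0.05, with a median of 0.28. Fibrillar collagens were not called (0 of 9). Their median was 0.39 with all libraries and 0.07 without WT_TAC 1, and the log2 fold change of Col3a1 was 0.13 with that library and -0.21 without it. Col1a1 had 140.5, 74.8 and 85.9 CPM in WT_TAC, against 84.1, 80.4 and 64.3 CPM in WT_NS, which overlapped (0.40, adjusted p = 0.609).

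Other matrix-associated genes were steadier between libraries. Sulf2, a sulfatase that trims heparan sulfate outside the cell, rose (51.5, 42.6 and 50.3 CPM in WT_TAC, against 36.1, 32.6 and 34.6 CPM in WT_NS), by 0.48 ± 0.09 on the log2 scale (adjusted p = 0.0139). Itgbl1, an integrin beta-like secreted protein, rose (19.9, 15.2 and 14.2 CPM in WT_TAC, against 7.81, 10.3 and 6.46 CPM in WT_NS), by 0.998 ± 0.16 (adjusted p = 0.0109). Both stayed called without WT_TAC 1. Sulf2 was called in 2 and Itgbl1 in 4 of the 6 fits with a library left out. Igfbp5, a secreted binding protein of insulin-like growth factors, had 122, 145 and 138 CPM in WT_TAC, against 78.5, 91.3 and 72.3 CPM in WT_NS (0.74 ± 0.11, adjusted p = 0.00619). WT_TAC 1 was here the lowest of its group, and the log2 fold change without it was 0.81. The heparan sulfate proteoglycan gene Sdc4 and the growth factor gene Fgf1, whose product binds heparan sulfate, fell. The level of Sdc4 was 15.9, 12.7 and 13.3 CPM in WT_TAC, against 31.1, 25.004 and 25.2 CPM in WT_NS (-0.95 ± 0.15, adjusted p = 0.0109). The level of Fgf1 was 72.8, 87.2 and 83.2 CPM in WT_TAC, against 109.8, 103 and 107 CPM in WT_NS (-0.39 ± 0.09, adjusted p = 0.0391). Both were separated by library. Fgf1 missed the threshold without WT_TAC 1 (-0.32, adjusted p = 0.124).

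**Figure D4:**
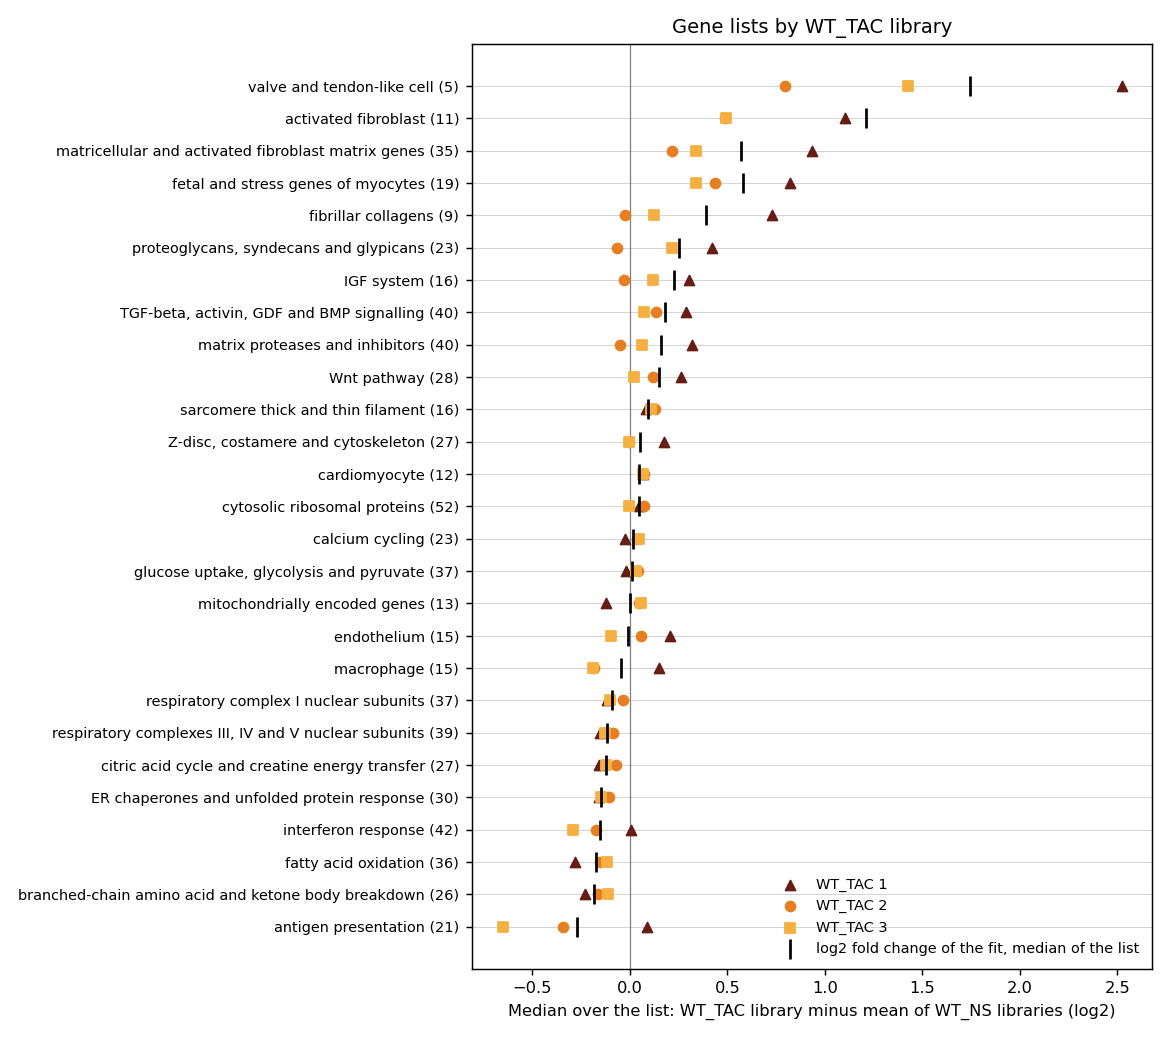
Median over each gene list of the difference between 1 WT_TAC library and the mean of the WT_NS libraries (log2, horizontal axis), with a triangle for WT_TAC 1, a circle for WT_TAC 2, a square for WT_TAC 3 and a bar for the median fitted log2 fold change, and the number of genes tested in brackets. Matrix lists have WT_TAC 1 far to the right of the other libraries, while in the fatty acid oxidation list the 3 libraries lie at -0.28, -0.16 and -0.12.

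Genes of mitochondrial fuel use were lower by small amounts across many members. Of 36 tested fatty acid oxidation genes, 3 were called lower (Acot1, Acaa2 and Ech1) and none higher, 30 were negative and 18 were lower at an unadjusted p below 0.05, against 5.26% of all genes. In 22 of the 36, all WT_TAC libraries lay below all WT_NS libraries, against 8.89% of all genes. The median log2 fold change was -0.18, and -0.13 without WT_TAC 1. In that fit 10 of the 36 (27.8%) were lower at an unadjusted p below 0.05, against 5.48% of all genes. There 1 of the 36 was called, Acot1, an acyl-CoA thioesterase (adjusted p = 0.0121). Acaa2 (adjusted p = 0.105) and Ech1 (adjusted p = 0.126) missed the threshold without WT_TAC 1. Acaa2 was called in 1 and Ech1 in 0 of the 6 fits with a library left out. Acaa2, the mitochondrial thiolase of the last step of the cycle, had 372, 381 and 435 CPM in WT_TAC, against 481, 509.7 and 537 CPM in WT_NS (-0.36 ± 0.08, adjusted p = 0.0361). Ucp3, a mitochondrial carrier of muscle linked to fatty acid use, had 19.9, 20.4 and 17.3 CPM in WT_TAC, against 29.98, 27.2 and 51.0 CPM in WT_NS (-0.91 ± 0.25, adjusted p = 0.157). Cpt1b, the muscle enzyme that admits fatty acids to mitochondria, overlapped between groups (0.02, adjusted p = 0.958). It had 232, 257 and 239 CPM in WT_TAC and 232, 238 and 248 CPM in WT_NS. Of its exonic bases, 81.4% are shared with Chkb, a tested gene on the same strand, so their reads may not be fully separated.

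Breakdown of branched-chain amino acids followed the same pattern. Of 26 tested genes of this and ketone body breakdown, 3 were called lower, 24 were negative and 13 were lower at an unadjusted p below 0.05, with a median of -0.18. Without WT_TAC 1 the median was -0.17, none was called and 7 were lower at an unadjusted p below 0.05. Pccb, a subunit of propionyl-CoA carboxylase, had 67.0, 68.7 and 65.4 CPM in WT_TAC, against 85.7, 85.6 and 83.9 CPM in WT_NS. The libraries of each group agreed closely and the groups were apart (-0.34 ± 0.07, adjusted p = 0.0296). Ivd, isovaleryl-CoA dehydrogenase of leucine breakdown, had 124, 136 and 132 CPM in WT_TAC, against 178, 159.8 and 164 CPM in WT_NS (-0.36 ± 0.08, adjusted p = 0.0391). Mccc2, a subunit of the next enzyme on the leucine route, had 34.6, 38.6 and 40.2 CPM in WT_TAC, against 47.6, 49.9 and 48.8 CPM in WT_NS (-0.37 ± 0.08, adjusted p = 0.0397). Pccb was called in 1 and Ivd and Mccc2 in 0 of the 6 fits with a library left out. The member farthest in the other direction was Bdh1, the enzyme that oxidises the ketone body beta-hydroxybutyrate. It had 122, 131 and 129 CPM in WT_TAC, against 64.6, 69.3 and 34.04 CPM in WT_NS, without overlap, but was not called (1.19 ± 0.27, adjusted p = 0.0978).

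Downstream of fuel entry the differences were smaller still and none was called. Of 27 citric acid cycle and creatine genes 24 were negative (median -0.12), of 37 nuclear-encoded complex I subunits 31 were negative (median -0.09), and of 39 nuclear-encoded subunits of complexes III, IV and V 36 were negative (median -0.12). In 21 of those 39, all WT_TAC libraries lay below all WT_NS libraries. Ndufa10, a complex I subunit, had 1433, 1529 and 1433 CPM in WT_TAC, against 1692, 1870.5 and 1775 CPM in WT_NS (-0.28 ± 0.07, adjusted p = 0.0897). The 13 mitochondrially encoded genes did not share this, with 6 positive and 7 negative and a median of 0.00. The 37 genes of glucose uptake, glycolysis and pyruvate had 20 positive and 17 negative members and none was called. Their median was 0.01 and turned to -0.02 when libraries were scaled by totals alone. The regulators Ppara (-0.34, adjusted p = 0.193) and Ppargc1a (-0.13, adjusted p = 0.845) were not called either.

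**Figure D5:**
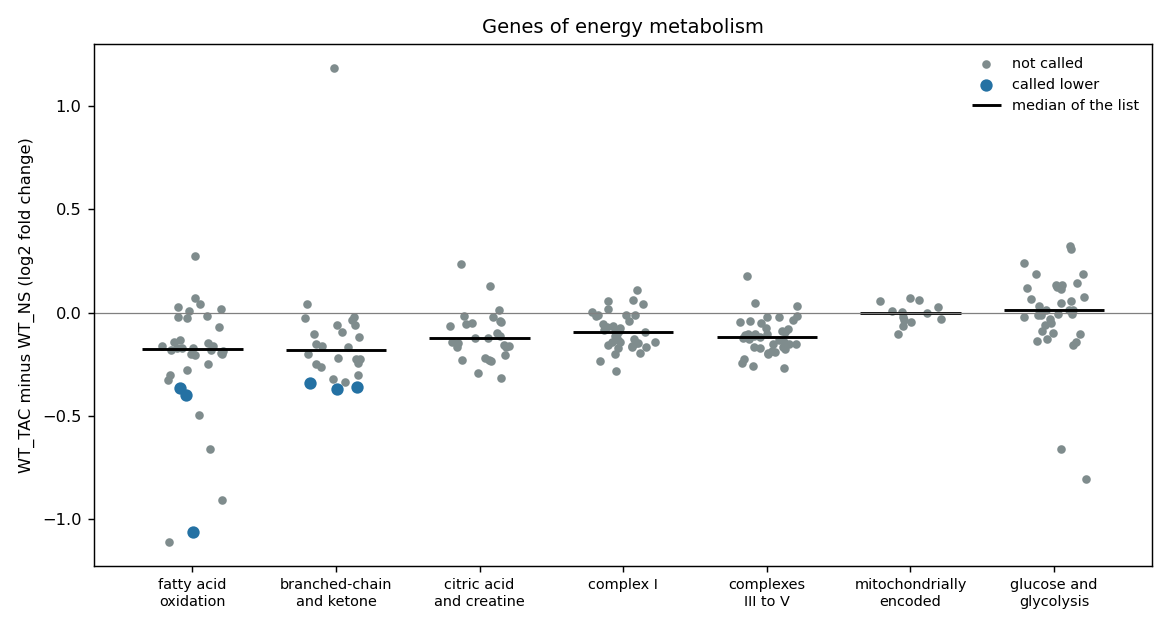
Log2 fold change (WT_TAC minus WT_NS, vertical axis) of each tested gene in 7 lists of energy metabolism, with called genes in blue, others in grey and the median as a black line. The lists of fatty acid oxidation and of branched-chain amino acid and ketone body breakdown have medians of -0.18 and 3 called genes each, and the mitochondrially encoded genes are centred on 0.00.

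Called genes outside these lists touched neighbouring metabolism, mostly downward. They were gathered here after their values were seen, and no count over them was tested. Dbi, the acyl-CoA-binding protein, had 53.8, 54.3 and 55.5 CPM in WT_TAC, against 71.1, 71.7 and 74.9 CPM in WT_NS (-0.41 ± 0.07, adjusted p = 0.0125). Tfrc, the transferrin receptor of iron uptake, had 30.9, 29.7 and 32.2 CPM in WT_TAC, against 49.5, 52.8 and 49.1 CPM in WT_NS (-0.71 ± 0.14, adjusted p = 0.033). In both, the spread inside each group was small beside the gap between the groups. Fbp2, the muscle fructose bisphosphatase, fell by 0.73 ± 0.13 on the log2 scale (adjusted p = 0.0114). Adhfe1, a mitochondrial hydroxyacid oxidoreductase, fell by 0.57 ± 0.10 (adjusted p = 0.0125), and Slc25a13, the aspartate-glutamate carrier citrin, fell by 0.37 ± 0.08 (adjusted p = 0.0421). Without WT_TAC 1, Tfrc (-0.71, adjusted p = 0.09) and Slc25a13 (-0.32, adjusted p = 0.126) missed the threshold, and Tfrc was called in 0 of the 6 fits with a library left out. Sardh, the mitochondrial sarcosine dehydrogenase, was an exception and rose, with 10.6, 6.90 and 9.72 CPM in WT_TAC against 4.27, 3.89 and 3.68 CPM in WT_NS (1.20 ± 0.19, adjusted p = 0.00657). Gstm2, a glutathione transferase, was the only called gene of 38 antioxidant genes and fell, with 45.5, 51.2 and 43.4 CPM in WT_TAC against 80.8, 72.0 and 73.9 CPM in WT_NS (-0.69 ± 0.12, adjusted p = 0.0127).

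Transcription factors changed in small number. Of 12 tested Kruppel-like factors, Klf9 and Klf15 were called, both lower. Klf15, which promotes lipid and branched-chain amino acid use in the heart, had 18.1, 15.004 and 19.5 CPM in WT_TAC, against 25.9, 24.9 and 25.3 CPM in WT_NS (-0.53 ± 0.12, adjusted p = 0.0463). Klf9, a glucocorticoid-inducible factor, had 34.2, 32.6 and 33.2 CPM in WT_TAC, against 46.1, 42.6 and 44.7 CPM in WT_NS (-0.41 ± 0.08, adjusted p = 0.0296). Neither overlapped between groups, and only Klf9 stayed called without WT_TAC 1. Klf9 was called in 2 and Klf15 in 0 of the 6 fits with a library left out. Of 28 immediate early genes only Nab2, a corepressor of Egr factors, was called (1.37 ± 0.25, adjusted p = 0.0429). Nab2 passed in 1 of the 6 fits with a library left out (adjusted p = 0.0859 without WT_TAC 1) and shares 35.7% of its exonic bases with a called predicted gene on the opposite strand. Egr1 itself had 25.04, 124 and 35.7 CPM in WT_TAC, against 11.8, 24.4 and 9.87 CPM in WT_NS. The high value was that of WT_TAC 2, and the test did not pass (2.01 ± 0.65, adjusted p = 0.252). Zfp36l1, which speeds decay of AU-rich messages, was higher (adjusted p = 0.043). It had 24.5, 39.3 and 33.7 CPM in WT_TAC, against 16.1, 21.2 and 15.9 CPM in WT_NS. It was called in 2 of the 6 fits with a library left out, and 56.0% of its exonic bases are shared with a predicted gene.

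Called genes of high level included a golgin gene and the microtubule gene Clip1. Golga4, a golgin of the trans-Golgi network, had 1930.4, 2043 and 2143 CPM in WT_TAC, against 1429.9, 1551 and 1545 CPM in WT_NS (0.43 ± 0.08, adjusted p = 0.0121). Clip1, which tracks growing microtubule ends, had 604, 593 and 556 CPM in WT_TAC, against 375, 414 and 429.6 CPM in WT_NS (0.52 ± 0.09, adjusted p = 0.00798). Both were separated by library and stayed called without WT_TAC 1. Golga4 was called in 3 and Clip1 in 5 of the 6 fits with a library left out. Further called genes of microtubule-associated proteins were Mapre2, Mtus1 and Map1a, with log2 fold changes of 0.41, 0.40 and 0.75. They were called in 1, 2 and 3 of the 6 fits with a library left out. Mapre2 missed the threshold without WT_TAC 1 (adjusted p = 0.0942). The tubulin genes, Mapt and Map4, all tested in the Z-disc list, were not called. The grouping was made after the values were seen and has no test.

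The interferon, antigen presentation and chaperone lists leaned to negative values with few calls. Of 42 tested interferon response genes, 1 was called (Ifit1, lower), 32 were negative and 10 were lower at an unadjusted p below 0.05 (median -0.16, and -0.26 with 13 lower without WT_TAC 1). Ifit1 was called in 0 of the 6 fits with a library left out (adjusted p = 0.0642 without WT_TAC 1). Of 21 antigen presentation genes none was called and 19 were negative (median -0.27). H2-Ab1, a class II chain, had 65.6, 48.1 and 43.0 CPM in WT_TAC, against 70.3, 63.6 and 78.7 CPM in WT_NS, overlapping through WT_TAC 1 (-0.44, adjusted p = 0.218). Without WT_TAC 1 all 21 were negative, the median was -0.52 and 3 were called lower, H2-Ab1 among them (-0.64, adjusted p = 0.0223). In that fit, 7589 of all 15121 genes were negative and 45 were called lower. At an unadjusted p below 0.05, 828 of all genes (5.48%) were lower there. The 15 markers of macrophages, which carry class II molecules, summed to 135, 101 and 99.9 CPM in WT_TAC and to 126, 123 and 122 CPM in WT_NS, and the antigen presentation genes to 670.1, 505 and 424 CPM in WT_TAC and to 629, 575 and 742 CPM in WT_NS. WT_TAC 2 and 3 were the lowest libraries in both sums. Their part in the antigen presentation values was not tested. Of 30 endoplasmic reticulum chaperone and unfolded protein response genes, 22 were negative and none was called (median -0.15). The chaperone Hspa5 had 368, 438 and 427 CPM in WT_TAC, against 519, 524 and 453 CPM in WT_NS (-0.28 ± 0.09, adjusted p = 0.159).

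Endothelial markers gave no call among 15 tested, with a median of -0.01. Esm1, an endothelial proteoglycan outside that list, rose (1.97, 1.97 and 1.93 CPM in WT_TAC, against 0.545, 0.648 and 0.135 CPM in WT_NS), by 2.13 ± 0.39 on the log2 scale (adjusted p = 0.0162). Its level was near the lower end of the measured range, and it was called in 3 of the 6 fits with a library left out. Apln, the ligand apelin, had 7.38, 6.69 and 7.70 CPM in WT_TAC, against 10.2, 10.2 and 9.78 CPM in WT_NS (-0.48, adjusted p = 0.0594). Its receptor gene Aplnr had 10.1, 10.3 and 11.1 CPM in WT_TAC, against 6.13, 6.35 and 4.93 CPM in WT_NS (0.86, adjusted p = 0.133). Neither passed, although the groups were apart in both. Cytosolic ribosomal protein genes gave no call among 52 tested, none at an unadjusted p below 0.05, and a median of 0.05. Cell cycle genes gave none among 42, with 6 lower and none higher at an unadjusted p below 0.05.

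Alox5, the lipoxygenase that gives the series its subject, had 13.4, 9.56 and 12.2 CPM in WT_TAC, against 13.0, 10.5 and 13.9 CPM in WT_NS (-0.09 ± 0.15, adjusted p = 0.879). Of 30 tested genes of arachidonic acid metabolism, 1 was called, the prostaglandin D synthase gene Ptgds, which was higher (0.85 ± 0.16, adjusted p = 0.0361). It was called in 0 of the 6 fits with a library left out, with an adjusted p of 0.0766 without WT_TAC 1, and was lost with no filter on low counts. Runx2 stayed below the filter, with 12, 6 and 6 counts in WT_TAC and 4, 2 and 4 counts in WT_NS.

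The genes called in the wild type were also read in the Alox5-deficient ventricles, whose libraries are separate from those of the wild-type contrast. Of the 73 called higher, 66 had a positive log2 fold change in Alox5ko_TAC over Alox5ko_NS (90.4%), and of the 45 called lower, 43 had a negative one (95.6%), against the same sign in 62.8% of all genes tested. In the knockout, 24 of the 73 and 12 of the 45 were called, against 1.32% of all genes. Both contrasts used the same estimate of the spread of each gene, from all 12 libraries. A gene of low estimated spread was thus easier to call in both, so these shares are no independent test. The median log2 fold change of the 73 was 0.39 in the knockout, against 0.75 in the wild type by whose values they were chosen, and that of the 45 was -0.38 in the knockout, against -0.67 in the wild type. In edgeR's test of the difference between the genotypes no gene was called (0 of 15121, smallest adjusted p = 0.551, with 816 genes or 5.4% at an unadjusted p below 0.05, with 1 called by DESeq2, 0 by limma-voom, 4 with the replicate block and 19 with no filter on low counts). Single genes ranged from close values, as for Hspb7 (0.58 in the knockout and 0.70 in the wild type), to distant ones, as for Camk2b (0.03 in the knockout and 0.91 in the wild type) and Scx (0.21 in the knockout and 1.41 in the wild type), none of them called different by edgeR.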

How the data were processed

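Whole-number read counts per gene were deposited by the authors for 12 polyadenylated, directional libraries sequenced with paired 150-base reads, per the labels' protocols. The submitters' processing notes name HISAT2, DESeq2 and the builds mm10 and GRCh38, and the table's coordinates are those of mm10. The counting tool and its strand setting are not given in the sources used here. RPKM values deposited by the authors were not used in any test.

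The counts were tested with edgeR 4.0.16 in R 4.3.3: TMM scaling, 1 coefficient for each of 4 groups over all 12 libraries (8 residual degrees of freedom), robust quasi-likelihood F tests and Benjamini-Hochberg adjustment over 15121 genes. Errors of log2 fold changes are SE, taken as the size of the log2 fold change over the square root of F, and their median was 0.147. Named genes were the 10 largest called fold changes and the 8 most abundant called genes in each direction, every called member or else the 4 smallest p of each list, and a set of cardiac genes named whatever their value. Called genes in no list were named as well, after their values were seen. The members and lists were chosen with earlier results of these data known. The fit was also run on simulated counts with 200 changed genes, as a check of the code. Its recovery and false calls are not given here, so it says nothing on error rates. Alternatives used limma 3.58.1 and DESeq2 1.42.0. Isoform shares are CPM per kilobase of the deposited gene length, with exact permutation tests. Promoters are from RefSeq (GRCm38.p6). The result for 1 called gene is not reported here.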

Additional observations from a re-analysis of the deposited data

Results flagged for a closer look

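The endoplasmic reticulum chaperone gene Hspa5 stood out because every TAC library lay on opposite sides of the NS libraries in the 2 genotypes. All Alox5ko_TAC libraries were above all Alox5ko_NS libraries (0.14 on the log2 scale), whereas all WT_TAC libraries were below all WT_NS libraries (-0.28). The difference between the responses was 0.42 ± 0.12 (SE), with an unadjusted p of 0.00335 and an adjusted p of 0.617 in edgeR's test of the difference over all genes, so it was not called. Its values in the wild type come from 3 libraries a group.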

How the results depend on the processing

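The number of genes called in WT_TAC against WT_NS was sensitive to the test and the filter, while none of the 102 called named genes changed direction. Uncalled values did: Col3a1 and the medians of the lists of glucose genes, cardiac transcription factors, collagen processing and the Z-disc changed sign under at least 1 alternative. It was 365 (233 higher, 132 lower) with no filter on low counts, 217 (140 and 77) when the 6 wild-type libraries were fitted alone and 289 (189 and 100) with DESeq2, of which 115, 109 and 115 were among the 118. The other scalings, filters and limma-voom gave 91 to 122 calls, and scaling by library totals alone gave 46 higher and 45 lower. With the replicate number as a block, 242 were called (155 and 87), and 598 (347 and 251) with the block in the 6 wild-type libraries alone. Deviations of same-numbered libraries correlated at 0.125, 0.133 and 0.079, so the numbers were not taken to pair the libraries, although each library correlated best with its own number. Leaving out 1 library gave 17 to 93 calls, with 12 to 66 higher and 3 to 45 lower. The difference between the genotypes gave 19 calls with no filter, 1 with DESeq2, 4 with the replicate block and 0 to 1 with 1 library left out. The causes were not tested. Of the 102 called genes, 10 were called in every alternative that tested them and 24 in none of the fits with a library left out. Gene list values without WT_TAC 1 were added after its matrix genes were seen to stand apart. Under 1 CPM, 0.163% of genes were called.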

Other observations

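Circadian clock genes gave no call in WT_TAC against WT_NS. Per2, a repressor of the circadian clock, had 2.16, 1.63 and 1.13 CPM in WT_TAC, against 2.54, 2.59 and 4.26 CPM in WT_NS (-0.93, adjusted p = 0.157). Bhlhe41, another clock repressor, had 12.5, 15.7 and 12.7 CPM in WT_TAC, against 10.1, 10.97 and 6.32 CPM in WT_NS (0.58, adjusted p = 0.151). Over the 21 tested clock genes, 1 was higher and 5 were lower at an unadjusted p below 0.05. The times of day of tissue collection are not given in the sources used here.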
